A study of Homo sapiens with 9 samples.

Results

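The metzincin proteases of the matrix metalloproteinase (MMP), ADAM and ADAMTS families and the inhibitors TIMP2 and TIMP3 were followed in tumours of LN229, an established human glioblastoma cell line. Members were the genes whose symbol is MMP, ADAM or ADAMTS followed by a number and at most 1 letter, without pseudogenes, together with TIMP2 and TIMP3. This gave 47 of the 18364 genes of the table, made up of 11 MMP, 15 ADAM, 19 ADAMTS and 2 TIMP genes, and 1 matching symbol listed as a pseudogene was left out. RNA was sequenced from 6 TAZ-4SA tumours, grown from LN229-4SA cells, and 3 EV tumours, grown from LN229-EV cells that carry the empty vector. All 9 tumours grew in the brains of nude mice and were taken at the terminal stage. TAZ is a transcriptional co-activator, and in the TAZ-4SA form serines phosphorylated by the Hippo kinases are replaced by alanine. Nude mice lack T cells but keep macrophages, microglia and vessels of their own, and whether mouse reads were separated from human ones is not given in the sources used here. Separate animals are not named for the tumours in the labels, and p-values therefore describe how these samples vary, which may be technical in part. The series asks what TAZ activation changes in glioblastoma, and the comparison here concerns the enzymes that cut the matrix and the cell surface.

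MMPs are zinc enzymes that cut collagens, laminins and other matrix proteins. Some are secreted and some are held at the membrane, and most are made as inactive precursors. ADAMs are membrane proteins that shed growth factors, receptors and adhesion molecules from the cell surface, although several of them lack the zinc-binding site and act as binding proteins. ADAMTS enzymes are secreted, carry thrombospondin repeats and cut proteoglycans such as versican and brevican, procollagens or microfibril proteins. TIMPs block these enzymes to different degrees, and in glioblastoma the balance between protease and inhibitor is known for its part in invasion of the brain.

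TAZ has no DNA-binding domain of its own and reaches DNA mostly with TEAD factors, often beside AP-1. RefSeq promoter sequences (GRCh38.p14, from 250 bases before to 50 bases after the gene's start) could be matched for 29 of the 47 members, among them 4 of the 8 that were higher in TAZ-4SA tumours. These 4 are shown because they are promoters of genes that moved together. Each is on the minus strand and is printed 5′ to 3′ in the direction of the gene, and capitals mark a match to GGAATG, the core of the TEAD motif, or to TGANTCA, the AP-1 motif, on either strand. They are ADAMTS6 at chr5:65481871-65482170, ADAMTS12 at chr5:33891941-33892240, ADAM17 at chr2:9555781-9556080 and ADAM10 at chr15:58749658-58749957.
ADAMTS6: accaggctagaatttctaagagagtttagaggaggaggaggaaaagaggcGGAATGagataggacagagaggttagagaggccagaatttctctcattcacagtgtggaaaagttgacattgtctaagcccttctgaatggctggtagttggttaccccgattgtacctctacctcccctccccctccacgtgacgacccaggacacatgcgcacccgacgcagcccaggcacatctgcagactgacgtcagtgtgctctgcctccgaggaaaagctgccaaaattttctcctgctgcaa
ADAMTS12: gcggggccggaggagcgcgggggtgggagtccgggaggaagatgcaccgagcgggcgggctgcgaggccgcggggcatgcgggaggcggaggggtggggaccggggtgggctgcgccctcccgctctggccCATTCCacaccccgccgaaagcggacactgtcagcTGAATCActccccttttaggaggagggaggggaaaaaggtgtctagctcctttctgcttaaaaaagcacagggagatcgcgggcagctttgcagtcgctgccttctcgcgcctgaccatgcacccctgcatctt
ADAM17: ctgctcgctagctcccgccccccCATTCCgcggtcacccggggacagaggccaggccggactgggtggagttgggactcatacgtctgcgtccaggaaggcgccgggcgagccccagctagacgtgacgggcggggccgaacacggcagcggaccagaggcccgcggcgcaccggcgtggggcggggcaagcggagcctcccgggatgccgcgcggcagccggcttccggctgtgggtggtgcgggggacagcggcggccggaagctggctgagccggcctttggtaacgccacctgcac
ADAM10: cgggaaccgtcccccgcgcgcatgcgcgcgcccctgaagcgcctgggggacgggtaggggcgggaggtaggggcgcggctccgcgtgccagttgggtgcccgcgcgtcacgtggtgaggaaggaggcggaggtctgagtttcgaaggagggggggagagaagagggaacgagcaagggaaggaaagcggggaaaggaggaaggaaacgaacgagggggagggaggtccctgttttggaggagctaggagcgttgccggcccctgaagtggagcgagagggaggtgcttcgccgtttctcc
The match in ADAMTS6 reads GGAATG and begins 200 bases before the start. In ADAMTS12 the reverse complement CATTCC begins 119 bases before the start and the AP-1 letters TGAATCA begin 84 bases before it, with no overlap between them. CATTCC begins 227 bases before the start of ADAM17. In the window of ADAM10 neither set of letters was found. GGAATG in either orientation occurs in 14% of all 35116 promoters of that length, in 5 of the 29 matched members (17.2%), in 3 of the 4 matched members called higher and in 0 of the 3 called lower. TGANTCA occurs in 7.71% of all promoters and in 2 of the 29 members, ADAMTS12 and MMP7. The GC content of these windows had a median of 71% over the members and 58.7% over all promoters. Matches of this kind describe letters, not bound sites, and so few promoters allow no comparison of the shares.

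WWTR1, the gene of TAZ, stood at 330.9 ± 74.6 CPM (SD, n = 6; 218 to 449) in TAZ-4SA tumours and at 119.6 ± 3.17 CPM (SD, n = 3; 116 to 123) in EV tumours. CPM are reads counted for a gene, scaled to a size set for each library, which differs from the sum of its recovered reads. The difference of 1.44 on the log2 scale had p = 0.02381 in the exact two-sided permutation test. This is the smallest value that 84 splits of 9 tumours allow when the 1-sided share of splits is doubled. Recovered reads numbered 3144861 to 31468135 per TAZ-4SA tumour and 17314672 to 21576264 per EV tumour. The number of genes at 0 reads was 2990 to 7365 over the TAZ-4SA tumours, against 505 to 622 over the EV tumours. It did not follow depth among TAZ-4SA tumours, with 6573 genes in tumour 4 at 31468135 reads and 2990 in tumour 5 at 3299325 reads. Among the 47 members, 15, 19, 16, 19, 4 and 12 had 0 reads in TAZ-4SA tumours 1 to 6, against 2, 1 and 3 in EV tumours 1 to 3. At least 1 TAZ-4SA tumour was at 0 reads for 28 of the 47 members and for 25 of the 44 tested (56.8%), against 45.2% of all genes tested, and the part of this lower detection in the falls given below was not tested.

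In the TAZ-4SA tumours 8 members were higher, namely the secreted proteases ADAMTS1, ADAMTS5, ADAMTS6 and ADAMTS12, the sheddases ADAM9, ADAM10 and ADAM17, and the inhibitor TIMP2. Another 7 were lower, namely the membrane-type enzymes MMP15, MMP16 and MMP17, the ADAMs ADAM11 and ADAM23, which lack the zinc-binding site, and ADAMTS8 and ADAMTS14. The remaining 29 of the 44 members tested were not called. In such bulk samples fewer cells of a type and less RNA per cell cannot be told apart. The calls come from limma on the deposited log2 CPM at a Benjamini-Hochberg adjusted p of 0.05 over 15578 genes that averaged at least 1 CPM. The 8 higher members are 18.2% of those tested, where 9.02% of all genes tested were called higher. The 7 lower members are 15.9%, where 13.3% of all genes tested were called lower, so their share is close to that of all genes. MMP7, ADAM21 and ADAM29 fell below the filter and were not tested. The filter was passed by 4 members whose TAZ-4SA mean was under 1 CPM, among them ADAMTS8 and ADAMTS14, and by 4 others whose EV mean was under 1 CPM. Every TAZ-4SA tumour lay above every EV tumour for 10 of the 44 members (background 10.8%) and below every EV tumour for 12 (background 21.3%). The median log2 fold change, TAZ-4SA minus EV, was -0.77 over the members tested and -0.85 over all genes tested, and quantile normalization moved the median of all genes to -0.15. Under that normalization 11 members were higher and 8 lower. Over all genes it gave 1920 higher and 1624 lower, against 1405 higher and 2079 lower as deposited. The count of lower members was 4 without TAZ-4SA tumour 1, 1 without EV tumour 1, 1 without EV tumour 2 and 2 without EV tumour 3. Over all genes tested the lower calls were 1807, 712, 677 and 839 in the same order.

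**Figure D1:**
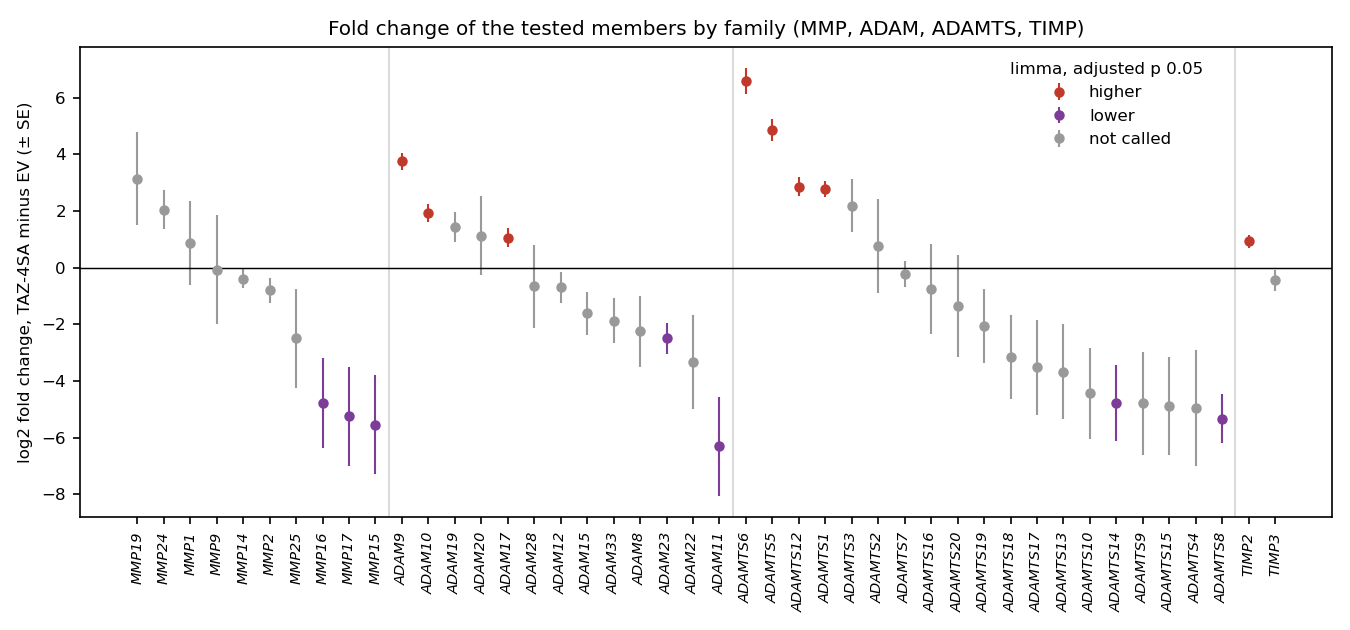
Log2 fold change (TAZ-4SA minus EV, y axis) with its standard error for the 44 members tested (x axis), grouped by family and coloured by the limma call. The 8 higher members have short error bars and fold changes of 0.92 to 6.59, while most of the 7 lower members have long ones, and the value of ADAMTS8, fitted against a group with 0 reads, depends on the authors' prior.

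By family, 0 of the 10 MMP genes tested were higher, 3 were lower and 7 were not called. Of the ADAM genes, 3 of 13 were higher, 2 were lower and 8 were not called. All 3 higher ADAMs are among the 10 tested with a zinc-binding site, and both lower ones are among the 3 tested without it. Of the ADAMTS genes, 4 of 19 were higher, 2 were lower and 13 were not called. Whether these families differ from each other was not tested.

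ADAMTS6 is known for acting on microfibril proteins, and it showed the highest fold change of the 44 members tested. Its level was 75.8 CPM in the lowest TAZ-4SA tumour, 132 CPM at the median and 208 CPM in the highest, against 1.55, 1.11 and 1.16 CPM in EV tumours 1 to 3. The gene was close to silent in EV tumours and well expressed in all TAZ-4SA tumours, with no overlap. The log2 fold change was 6.59 ± 0.44 (SE; limma adjusted p = 1.702e-06), and it lay between 5.39 with a pseudocount of 2 CPM and 8.52 after quantile normalization. The gene lies on chromosome 5 from 65148738 to 65481920 (GRCh38), and per kilobase of its longest coding transcript it ranked 8 among the 47 members in TAZ-4SA tumours and 42 in EV tumours.

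ADAMTS5, a main aggrecan- and versican-cleaving enzyme on chromosome 21 from 26917922 to 26967088, rose as well. It stood at 62.6, 110.3 and 142 CPM in the lowest, median and highest TAZ-4SA tumour, against 4.40, 3.26 and 2.90 CPM in EV tumours 1 to 3. Its log2 fold change was 4.86 ± 0.39 (SE; limma adjusted p = 7.389e-06), and 7.02 after quantile normalization. ADAMTS1, another proteoglycan-cleaving enzyme that is also known to restrain vessel growth, lies next to it from 26835755 to 26845409, with a gap of 72.5 kb and 0 coding genes between them. ADAMTS1 stood at 223, 335 and 445 CPM in the lowest, median and highest TAZ-4SA tumour, against 41.7, 45.9 and 58.2 CPM in EV tumours 1 to 3. The groups were apart for both neighbours, and the log2 fold change of ADAMTS1 was 2.76 ± 0.28 (SE; limma adjusted p = 4.812e-05).

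ADAMTS12, an enzyme that cuts cartilage oligomeric matrix protein, lies on chromosome 5 from 33523535 to 33891990. The level was 72.1, 90.7 and 131 CPM in the lowest, median and highest TAZ-4SA tumour, against 15.2, 13.02 and 10.4 CPM in EV tumours 1 to 3. All TAZ-4SA tumours were above all EV tumours, and the log2 fold change was 2.86 ± 0.34 (SE; limma adjusted p = 0.0001419). ADAMTS7, which cuts the same matrix protein, was not called, at 87.5 ± 48.6 CPM in TAZ-4SA (SD, n = 6) and 91.4 ± 19.9 CPM in EV (SD, n = 3; limma adjusted p = 0.7389).

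Among the other ADAMTS genes, the proteoglycan-cleaving ADAMTS8 had 0 reads in all 6 TAZ-4SA tumours, against 4.97, 5.29 and 7.03 CPM in EV tumours 1 to 3. With a floor of 3 reads per library this is at least 13.8-fold lower (limma adjusted p = 0.001204), a bound that covers counting error only. ADAMTS15 lies 20035 bases from ADAMTS8 on chromosome 11 with 0 coding genes between them and cuts the same kind of substrate. Its TAZ-4SA values of 0 to 14.8 CPM were all below the EV values of 43.8, 51.6 and 16.8 CPM, and the limma adjusted p of 0.06261 did not pass. ADAMTS4, another main aggrecan-cleaving enzyme, had 0 reads in 3 TAZ-4SA tumours and at most 28.8 CPM in the others, against 50.2, 59.2 and 53.8 CPM in EV tumours 1 to 3 (limma adjusted p = 0.1003).

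The procollagen-processing enzymes were ADAMTS2, ADAMTS3 and ADAMTS14. ADAMTS14 had 0 reads in 5 TAZ-4SA tumours and 5.60 CPM in tumour 5, against 6.00, 11.8 and 5.35 CPM in EV tumours 1 to 3. The groups overlapped through tumour 5 alone, and the log2 fold change was -4.79 ± 1.35 (SE; limma adjusted p = 0.02399). It was -5.67 without TAZ-4SA tumour 5, -2.78 after quantile normalization and -1.90 with a pseudocount of 2 CPM. The call was lost without any 1 of the EV tumours (limma adjusted p 0.07787 to 0.1238) and, at -3.90, without TAZ-4SA tumours 2, 3 and 4 (0.1073). ADAMTS3 was at 8.12 to 36.0 CPM in TAZ-4SA tumours, all above the EV values of 2.48, 3.02 and 2.97 CPM, and was not called (limma adjusted p = 0.1123). ADAMTS2 stood at 16.2 ± 17.1 CPM in TAZ-4SA (SD, n = 6) and 3.93 ± 1.54 CPM in EV (SD, n = 3), with 1 TAZ-4SA tumour at 0 reads (limma adjusted p = 0.7597). The other members of the family, ADAMTS9, ADAMTS10, ADAMTS13 and ADAMTS16 to ADAMTS20, had log2 fold changes of -4.79 to -0.75, none of them past the threshold. For ADAMTS16 and ADAMTS20 the mean CPM was nevertheless higher in TAZ-4SA. It was 10.85 against 8.97 CPM in EV for ADAMTS16 and 5.37 against 2.91 CPM for ADAMTS20. Of the 6 TAZ-4SA tumours, 1 was at 0 reads for ADAMTS16 and 2 for ADAMTS20.

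ADAM9, a sheddase with many substrates on chromosome 8 from 38996973 to 39105261, had the highest fold change of the ADAM genes tested. Its level was 119.8, 146 and 192 CPM in the lowest, median and highest TAZ-4SA tumour, against 11.01, 10.4 and 10.4 CPM in EV tumours 1 to 3. The tumours of each group lay close together and far from the other group. This amounted to a log2 fold change of 3.75 ± 0.30 (SE; limma adjusted p = 5.943e-06). TM2D2, which overlaps ADAM9, stood at 14.1 ± 7.76 CPM in TAZ-4SA (SD, n = 6) and 17.8 ± 1.33 CPM in EV (SD, n = 3).

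ADAM10 and ADAM17 are the sheddases that release Notch and EGF receptor ligands, among others. ADAM10, on chromosome 15 from 58588809 to 58749707, was at 75.6, 112 and 133 CPM in the lowest, median and highest TAZ-4SA tumour, against 26.2, 25.2 and 32.4 CPM in EV tumours 1 to 3. ADAM17, on chromosome 2 from 9488486 to 9555830, was at 45.2, 56.2 and 74.2 CPM in the lowest, median and highest TAZ-4SA tumour, against 25.7, 24.01 and 34.1 CPM in EV tumours 1 to 3. For both genes all TAZ-4SA tumours lay above all EV tumours. The log2 fold change of ADAM10 was 1.92 ± 0.31 (SE; limma adjusted p = 0.001229). That of ADAM17 was 1.05 ± 0.33 (SE; limma adjusted p = 0.03812), and its call was lost with median-of-ratios scaling (limma adjusted p = 0.05146), without TAZ-4SA tumour 1 (0.05083) and without EV tumour 1 (0.1983), 2 (0.2178) or 3 (0.09204). IAH1, which overlaps ADAM17, stood at 27.9 ± 8.61 CPM in TAZ-4SA (SD, n = 6) and 36.8 ± 2.13 CPM in EV (SD, n = 3).

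The other ADAMs with a zinc-binding site were not called. ADAM19, a sheddase of neuregulins, was at 105.6 ± 52.2 CPM in TAZ-4SA tumours (SD, n = 6) and 34.1 ± 8.22 CPM in EV tumours (SD, n = 3), and 5 of 6 TAZ-4SA tumours lay above all EV tumours (limma adjusted p = 0.07076). ADAM15, which also binds integrins, ran from 11.9 to 209 CPM across TAZ-4SA tumours and from 172 to 206 CPM across EV tumours (limma adjusted p = 0.1454). ADAM12, ADAM28 and ADAM33 had log2 fold changes of -0.70, -0.66 and -1.88, and ADAM8 and ADAM20 of -2.25 and 1.13, none of them past the threshold. The mean of ADAM28 was nevertheless higher in TAZ-4SA, at 2.03 CPM against 0.579 CPM in EV, with 4 TAZ-4SA tumours at 0 reads.

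ADAM11, ADAM22 and ADAM23 lack the zinc-binding site and are known in the nervous system as partners of LGI proteins and adhesion molecules. ADAM23, on chromosome 2 from 206443532 to 206621127, was at 7.03, 12.5 and 25.3 CPM in the lowest, median and highest TAZ-4SA tumour, against 95.5, 67.0 and 57.5 CPM in EV tumours 1 to 3. It had reads in every tumour, and all TAZ-4SA tumours lay below all EV tumours. ADAM23 fell by 2.49 ± 0.55 on the log2 scale (SE; limma adjusted p = 0.006832), and the call was lost without EV tumour 1 (limma adjusted p = 0.1018) or EV tumour 2 (0.06472).

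ADAM11, on chromosome 17 from 44758988 to 44781846, had 0 reads in TAZ-4SA tumours 1, 3 and 4, 0.101 CPM in tumour 2, 11.5 CPM in tumour 5 and 8.86 CPM in tumour 6, against 46.0, 52.2 and 57.6 CPM in EV tumours 1 to 3. The EV tumours lay close together, while 4 TAZ-4SA tumours were at or near 0 and 2 were not. The log2 fold change was -6.31 ± 1.75 (SE; limma adjusted p = 0.02242), where the mean CPM was 15.3-fold lower in TAZ-4SA, and it was -7.14 without TAZ-4SA tumour 5, -7.07 without tumour 6, -8.29 without both and -3.87 with a pseudocount of 2 CPM. The call was lost without any 1 EV tumour (limma adjusted p 0.08436 to 0.09085) and, at -4.39, without TAZ-4SA tumours 2, 3 and 4 together (0.08593). ADAM22 was at 0 to 15.7 CPM in TAZ-4SA tumours, all below the EV values of 23.2, 19.7 and 23.3 CPM, and was not called (limma adjusted p = 0.1672).

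**Figure D2:**
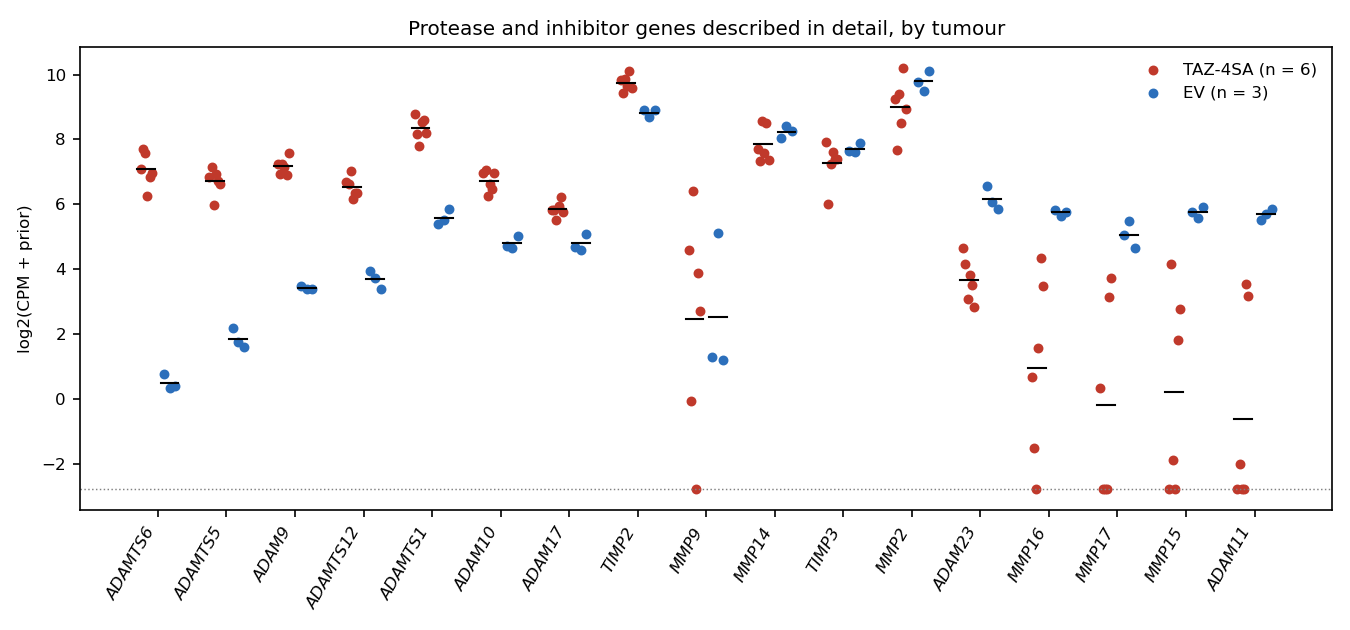
Level of the 17 members described in detail (x axis) as log2 of CPM plus the authors' prior (y axis), 1 point per tumour, with TAZ-4SA left of EV, a bar at each group's mean and a dotted line at the level of 0 reads. The 8 higher members sit apart from EV with little spread, while TAZ-4SA tumours of MMP15, MMP16, MMP17 and ADAM11 run down to the line of 0 reads.

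Membrane-type MMPs cut matrix at the cell surface, and some of them activate secreted MMPs. MMP15, on chromosome 16 from 58025754 to 58046901, was at 0, 1.74 and 17.9 CPM in the lowest, median and highest TAZ-4SA tumour, against 54.7, 47.8 and 59.96 CPM in EV tumours 1 to 3. Every TAZ-4SA tumour lay below every EV tumour, with tumour 2 the highest of its group. MMP15 had a log2 fold change of -5.54 ± 1.73 (SE; limma adjusted p = 0.03762), with mean CPM 11.6-fold lower in TAZ-4SA. It was -4.94 and no longer called without TAZ-4SA tumour 1 (limma adjusted p = 0.06543) or tumour 4 (0.06053), -6.33 without tumour 2 and -3.65 with a pseudocount of 2 CPM, and the call was also lost without any 1 EV tumour (0.1278 to 0.1339).

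MMP16, on chromosome 8 from 88032011 to 88327483, was at 0, 2.14 and 20.2 CPM in the lowest, median and highest TAZ-4SA tumour, against 57.1, 50.2 and 54.2 CPM in EV tumours 1 to 3. MMP17, a glycolipid-anchored member on chromosome 12 from 131828393 to 131851771, was at 0, 0.561 and 13.1 CPM in the lowest, median and highest TAZ-4SA tumour, against 33.0, 44.2 and 25.2 CPM in EV tumours 1 to 3. For both, TAZ-4SA tumours 5 and 6 were the highest of their group and still below all EV tumours. The log2 fold changes were -4.79 ± 1.59 (SE; limma adjusted p = 0.0476) for MMP16 and -5.25 ± 1.74 (SE; limma adjusted p = 0.04792) for MMP17, just inside the threshold. Mean CPM was 9.06-fold lower for MMP16 and 8.93-fold lower for MMP17. Of 21 alternatives, 10 ended the call of MMP16, among them leaving out TAZ-4SA tumour 1, 2 or 4 or any EV tumour (limma adjusted p up to 0.1683), and its log2 fold change was -4.05 without tumour 3 and -5.47 without tumour 5. Over all alternatives it ran from -6.97 with the replicate number as a block to -2.92, not called, without tumours 2, 3 and 4 (limma adjusted p = 0.05318). The block compares only tumours 1 to 3 of each group. The call of MMP17 was lost in 12 of 21, among them leaving out TAZ-4SA tumour 1, 2, 3 or 4 or any EV tumour (limma adjusted p up to 0.1716), and its log2 fold change was -5.92 without tumour 5 and -6.04 without tumour 6. Over all alternatives it ran from -7.07 without TAZ-4SA tumours 5 and 6 to -2.66, not called, without tumours 2, 3 and 4 (limma adjusted p = 0.06637).

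MMP14, the main activator of MMP2 at the cell surface, lies on chromosome 14 from 22836585 to 22847758. It had 159.8 to 383 CPM in TAZ-4SA tumours, with a median of 201 CPM, against 265, 344 and 306 CPM in EV tumours 1 to 3. The groups overlapped, and MMP14 was not called (log2 fold change -0.40 ± 0.33, SE; limma adjusted p = 0.4001). MMP24, a membrane-type enzyme known from neurons, was the member nearest to the threshold from outside. It stood at 11.7 to 78.4 CPM in TAZ-4SA tumours, all above the EV values of 8.71, 7.68 and 6.71 CPM, with a log2 fold change of 2.05 ± 0.70 (SE; limma adjusted p = 0.05282). It overlaps MMP24OS, which stood at 8.07 ± 9.21 CPM in TAZ-4SA (SD, n = 6) and 7.78 ± 3.75 CPM in EV (SD, n = 3). MMP25 was at 6.998 ± 11.2 CPM in TAZ-4SA (SD, n = 6) and 10.2 ± 2.00 CPM in EV (SD, n = 3; limma adjusted p = 0.316).

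Of the secreted MMPs tested, 0 of 4 were called in either direction. MMP2, the gelatinase that cuts type IV collagen (chromosome 16 from 55478830 to 55506691), was at 203, 553 and 1179 CPM in the lowest, median and highest TAZ-4SA tumour, against 879.8, 722 and 1104 CPM in EV tumours 1 to 3. Of the TAZ-4SA tumours, 5 lay below all EV tumours and tumour 5 above them, so the groups overlapped (log2 fold change -0.79 ± 0.44, SE; limma adjusted p = 0.2073). MMP9, the other gelatinase and a known product of macrophages and neutrophils (chromosome 20 from 46008908 to 46016561), ran from 0 to 85.1 CPM across TAZ-4SA tumours with a median of 10.5 CPM, against 2.30, 34.6 and 2.13 CPM in EV tumours 1 to 3. Its log2 fold change of -0.07 ± 1.92 (SE; limma adjusted p = 0.9813) changed sign with the tumour left out, at 0.43 without TAZ-4SA tumour 2, 0.97 without tumour 4 and 1.22 without EV tumour 2, and it was 2.00 after quantile normalization. MMP19 was at 11.4 ± 9.29 CPM in TAZ-4SA (SD, n = 6) and 0.599 ± 0.542 CPM in EV (SD, n = 3), with 1 TAZ-4SA tumour at 0 reads (limma adjusted p = 0.1854). MMP1, the interstitial collagenase, had 16.6 CPM in TAZ-4SA tumour 4 and at most 0.404 CPM in the other TAZ-4SA tumours, against at most 0.465 CPM in EV tumours (limma adjusted p = 0.6961).

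TIMP2, which inhibits MMPs and also takes part in the activation of MMP2 by MMP14 (chromosome 17 from 78852977 to 78925387), was at 692.5, 859.9 and 1106 CPM in the lowest, median and highest TAZ-4SA tumour, against 476, 413 and 479.5 CPM in EV tumours 1 to 3. All TAZ-4SA tumours lay above all EV tumours, and the log2 fold change was 0.92 ± 0.22 (SE; limma adjusted p = 0.009657). Without EV tumour 1 (limma adjusted p = 0.05722) or EV tumour 2 (0.08327) the call was lost. TIMP3, which is bound to the matrix and inhibits ADAM17 as well as ADAMTS enzymes (chromosome 22 from 32801705 to 32863041), was at 64.9, 169 and 240.0 CPM in the lowest, median and highest TAZ-4SA tumour, against 200.3, 196 and 237 CPM in EV tumours 1 to 3. TAZ-4SA tumour 2 was far below the others, tumour 1 was above all EV tumours, and TIMP3 was not called (log2 fold change -0.45 ± 0.37, SE; limma adjusted p = 0.3901).

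**Figure D3:**
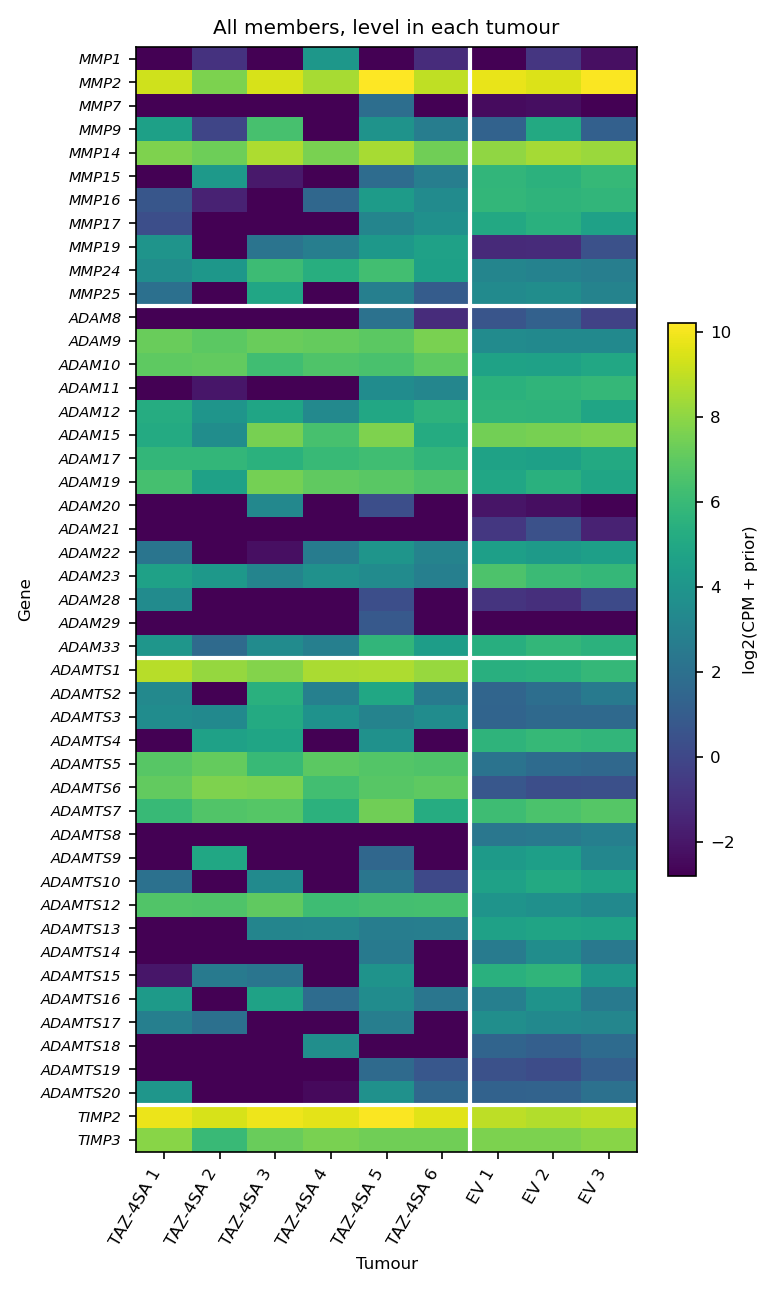
Level of all 47 members (rows, by family) in the 9 tumours (columns, TAZ-4SA left of EV), coloured by log2 of CPM plus the authors' prior. The darkest cells are 0 reads, of which TAZ-4SA tumours hold 4 to 19 and EV tumours 1 to 3.

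Set per kilobase of each gene's longest coding transcript, which stands in for the transcripts in use, the members with the highest mean level in TAZ-4SA tumours were TIMP2 at 239 CPM per kb, MMP2 at 158, MMP14 at 65.8 and ADAMTS1 at 64.8. In EV tumours they were MMP2 at 241 CPM per kb, TIMP2 at 125, MMP14 at 81.7 and ADAM15 at 63.8. ADAM9 held rank 5 in TAZ-4SA, against rank 23 in EV, and ADAMTS5 rank 12 in TAZ-4SA, against rank 38 in EV. The summed level of all members was 2457 to 4696 CPM in TAZ-4SA tumours and 2813 to 3173 CPM in EV tumours, so the groups overlapped in total.

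Higher and lower members had unlike spreads among TAZ-4SA tumours. The SD of log2 CPM among TAZ-4SA tumours had a median of 0.32 for the 8 higher members and 2.77 for the 7 lower ones, and among EV tumours it was 0.24 and 0.26. Over all genes tested the median SD was 1.499 in TAZ-4SA and 0.274 in EV. Of the 25 tested members with a TAZ-4SA tumour at 0 reads, 0 were higher, 6 were lower and 19 were not called. The 19 with reads in every TAZ-4SA tumour held all 8 higher members and 1 lower one. This is also the pattern of the whole table, where 5 of the 1405 genes called higher (0.356%) and 1292 of the 2079 called lower (62.15%) had a TAZ-4SA tumour at 0. Transcript length also moved with the call, with a median of 6251 bases for the 8 higher members and 4571 bases for the 7 lower ones, where all genes called higher and lower had medians of 5272 and 2900 bases. The part of detection and of length in the calls was not tested.

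**Figure D4:**
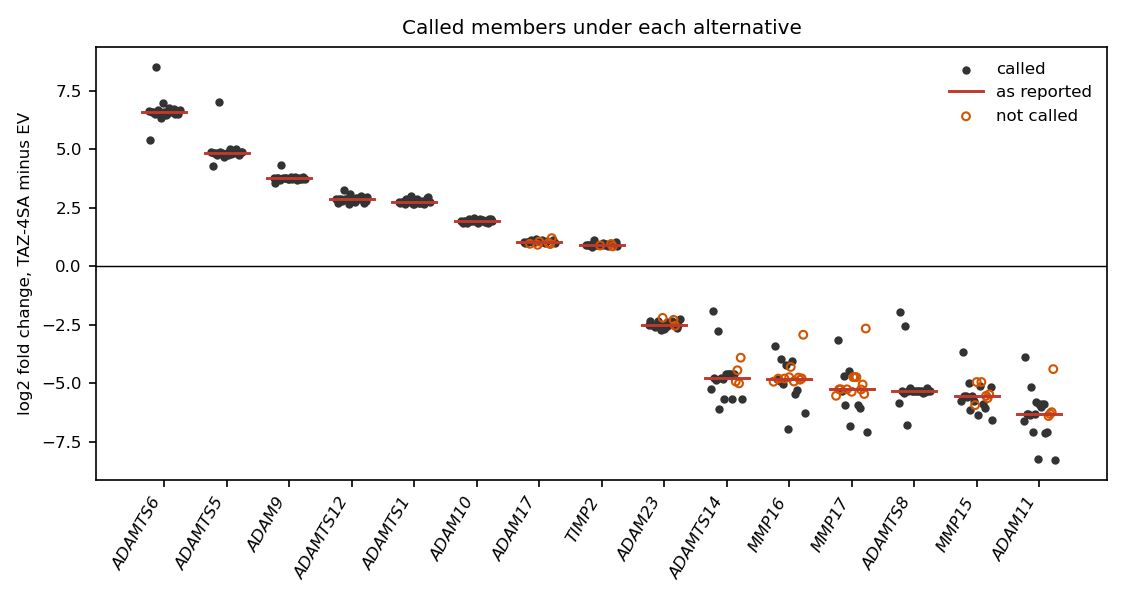
Log2 fold change of the 15 called members (x axis) as reported (red line) and under each of 21 alternatives (points, y axis), filled where still called and open where not. Points of ADAMTS6, ADAMTS5, ADAM9, ADAMTS12, ADAMTS1 and ADAM10 are filled throughout, while MMP16 and MMP17 have 10 and 12 open points.

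Genes around the proteases were read from lists of their regulators and substrates, to be set against the 9.02% of all genes tested that were called higher and the 13.3% called lower. Of 10 inhibitors and activators of MMPs, 1 was higher, 5 were lower and 4 were not called, with a median log2 fold change of -1.46 (-0.85 over all genes tested). TIMP1, the inhibitor often induced in glioblastoma, was at 182 ± 56.5 CPM in TAZ-4SA tumours (SD, n = 6) and 504 ± 54.1 CPM in EV tumours (SD, n = 3; limma adjusted p = 0.004116). BSG, the surface protein that induces MMPs in neighbouring cells, was at 258 ± 71.5 CPM in TAZ-4SA tumours, against 635 ± 29.2 CPM in EV tumours (limma adjusted p = 0.00391). Of the proprotein convertases that activate membrane-type MMPs and ADAMs, FURIN, PCSK5 and PCSK6 were called lower and PCSK7 was not called. PCSK5 and PCSK6 had TAZ-4SA means under 1 CPM and passed the filter through the EV tumours, in which they are higher. FURIN stood at 93.2 ± 41.2 CPM in TAZ-4SA tumours, against 235 ± 90.3 CPM in EV tumours (limma adjusted p = 0.02548), and its call was lost without any 1 EV tumour (0.05128 to 0.1474) and without TAZ-4SA tumour 1 (0.05383) or 4 (0.05057). PCSK5 had reads in 1 of 6 TAZ-4SA tumours, at 1.22 CPM, against 8.28 ± 0.706 CPM in EV (limma adjusted p = 0.004301). PCSK6 was at 0.333 ± 0.797 CPM in TAZ-4SA tumours, against 8.14 ± 0.362 CPM in EV tumours (limma adjusted p = 0.007401), with its call lost without EV tumour 1 (0.05193) or 2 (0.05216). PCSK6 had a log2 fold change of -5.14, with -5.77 without TAZ-4SA tumour 5 and -2.17 with a pseudocount of 2 CPM. SPOCK1, a testican known to restrain membrane-type MMPs, was higher, at 186 ± 79.3 CPM in TAZ-4SA tumours, against 27.0 ± 5.75 CPM in EV tumours (limma adjusted p = 0.001549).

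Of 9 partners that carry ADAM17 and ADAM10 to the cell surface, 0 were higher, 3 were lower and 6 were not called, with a median log2 fold change of -1.04. TSPAN15, a tetraspanin that directs ADAM10 to cadherins, had 0 reads in 4 TAZ-4SA tumours and stood at 2.07 ± 3.42 CPM in TAZ-4SA (SD, n = 6) and 54.6 ± 4.69 CPM in EV (SD, n = 3; limma adjusted p = 0.01162). The fold change of TSPAN15 was -6.76 on the log2 scale, -7.57 when TAZ-4SA tumour 5 was left out and -7.39 when tumour 6 was, and -4.16 with a pseudocount of 2 CPM, and its call was lost without EV tumour 1 (limma adjusted p = 0.05748) or 2 (0.05583). FRMD8, which holds ADAM17 and its iRhom carrier at the surface, was at 55.7 ± 31.1 CPM in TAZ-4SA tumours, against 134 ± 15.5 CPM in EV tumours (limma adjusted p = 0.036), and lost its call without any 1 EV tumour (0.09452 to 0.1479) and without TAZ-4SA tumour 1 (0.06952), 4 (0.06123) or 6 (0.06931). TSPAN33 was at 4.05 ± 5.85 CPM in TAZ-4SA tumours, against 47.4 ± 7.75 CPM in EV tumours (limma adjusted p = 0.03812), and lost its call without any 1 EV tumour (0.1301 to 0.135) and without TAZ-4SA tumour 1 (0.05051), 3 (0.05017) or 4 (0.06176). TSPAN33 had a log2 fold change of -5.43, with -6.18 without TAZ-4SA tumour 5 and -2.81 without tumours 2, 3 and 4. RHBDF2, an iRhom that carries ADAM17, was at 31.1 ± 19.9 CPM in TAZ-4SA tumours, against 13.9 ± 1.10 CPM in EV tumours and was not called (limma adjusted p = 0.3468). RHBDF1, also an iRhom, leaned the other way, at 18.5 ± 22.9 CPM in TAZ-4SA tumours, against 47.0 ± 11.2 CPM in EV tumours, and was not called (limma adjusted p = 0.1784).

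Among proteins cut by ADAMs, 7 of 14 tested were higher, 2 were lower and 5 were not called (all genes 9.02% higher and 13.3% lower), with a median log2 fold change of 0.99 (-0.85 over all genes tested). NRG1, a ligand of ERBB receptors, was at 76.6 ± 37.9 CPM in TAZ-4SA tumours (SD, n = 6) and 1.24 ± 0.388 CPM in EV tumours (SD, n = 3; limma adjusted p = 4.516e-05). The receptor MET was at 190.0 ± 23.1 CPM in TAZ-4SA tumours, against 5.77 ± 1.37 CPM in EV tumours (limma adjusted p = 7.293e-07). AXL, L1CAM, CD44, CDH2 and NOTCH2 were also higher, with log2 fold changes of 3.14, 1.69, 1.63, 1.31 and 1.33, and the call of NOTCH2 was lost without EV tumour 1 (limma adjusted p = 0.05589) or 2 (0.07372). NOTCH1 leaned the other way, at 58.2 ± 56.5 CPM in TAZ-4SA tumours, against 298.6 ± 52.1 CPM in EV tumours. Its log2 fold change of -3.52 was not called (limma adjusted p = 0.08249). CX3CL1, the membrane-bound chemokine, was at 1.06 ± 1.55 CPM in TAZ-4SA tumours, against 41.1 ± 20.6 CPM in EV tumours (limma adjusted p = 0.008789). It was not called without EV tumour 3 (limma adjusted p = 0.05493), and leaving out TAZ-4SA tumour 6 moved its log2 fold change, -6.25, to -6.84, where a pseudocount of 2 CPM gave -3.85. TGFA, an EGF receptor ligand released by ADAM17, was at 35.8 ± 18.4 CPM in TAZ-4SA tumours, against 84.6 ± 13.98 CPM in EV tumours (limma adjusted p = 0.03594). The call of TGFA was lost after quantile normalization, without any 1 EV tumour (limma adjusted p 0.1072 to 0.1792) and without TAZ-4SA tumour 4 (0.05609) or 6 (0.06131).

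Of the proteoglycans that ADAMTS enzymes cut, 0 of 4 were higher, 1 was lower and 3 were not called. ACAN, aggrecan, had reads in 1 of 6 TAZ-4SA tumours, at 1.12 CPM, against 102, 111 and 178 CPM in EV tumours 1 to 3 (limma adjusted p = 0.0002491). VCAN, versican, was at 335 ± 36.4 CPM in TAZ-4SA (SD, n = 6) and 282 ± 8.58 CPM in EV (SD, n = 3; limma adjusted p = 0.4333), and BCAN, brevican, at 9.11 ± 10.6 CPM in TAZ-4SA tumours, against 75.6 ± 6.39 CPM in EV tumours (limma adjusted p = 0.06104). Among 7 ADAMTS-like proteins, which have the ADAMTS repeats without the protease, 2 were higher, 1 was lower and 4 were not called. ADAMTSL4, a microfibril protein, was at 141 ± 54.8 CPM in TAZ-4SA tumours, against 11.3 ± 2.35 CPM in EV tumours (limma adjusted p = 5.439e-05), and THSD4 at 51.0 ± 15.8 CPM in TAZ-4SA tumours, against 7.31 ± 1.78 CPM in EV tumours (limma adjusted p = 0.002235). ADAMTSL2 was at 0.990 ± 2.39 CPM in TAZ-4SA tumours, against 9.73 ± 2.51 CPM in EV tumours (limma adjusted p = 0.01851), and its call was lost without any 1 EV tumour (0.07854 to 0.08403). ADAMTSL2 had a log2 fold change of -5.08, with -5.96 without TAZ-4SA tumour 5, -4.27 and no call without tumours 2, 3 and 4 (limma adjusted p = 0.0858) and -2.19 with a pseudocount of 2 CPM. ACAN and ADAMTSL2 also had TAZ-4SA means under 1 CPM and passed the filter through the EV tumours.

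Markers of the tumour cells and of other cells were read beside these values. Summed over VIM, EGFR, CD44 and NES, markers of the tumour cells reached 2265 to 3783 CPM in TAZ-4SA tumours and 3097 to 3477 CPM in EV tumours. The single markers moved in opposite directions. EGFR and CD44 were called higher, NES was called lower and VIM, the most abundant, was not called. EGFR stood at 375 ± 89.3 CPM in TAZ-4SA (SD, n = 6) and 10.35 ± 2.15 CPM in EV (SD, n = 3; limma adjusted p = 4.987e-07). NES stood at 158 ± 60.5 CPM in TAZ-4SA tumours, against 1324 ± 35.1 CPM in EV tumours (limma adjusted p = 3.943e-05). Of 5 microglia and macrophage markers in the table, 4 were tested and 1, CD68, was higher, and their sum was 54.7 to 142 CPM in TAZ-4SA tumours and 15.9 to 25.6 CPM in EV tumours. CD68 had reads in 6 of 6 TAZ-4SA tumours, CSF1R in 4, ITGAM in 2, and PTPRC and TYROBP in 1 each, while in EV tumours CD68, CSF1R and ITGAM had reads in 3 of 3, PTPRC in 2 and TYROBP in 1. Mural and fibroblast markers summed to 180.3 to 269 CPM in TAZ-4SA and 105 to 205 CPM in EV, with 1 of 5, LUM, higher. Neuron markers summed to 70.6 to 1131 CPM in TAZ-4SA and 17.1 to 98.6 CPM in EV, with 1 of 3, SYT1, higher (limma adjusted p = 0.006618, and 0.1031 with limma-voom on recovered reads). Endothelial markers summed to 0 to 13.2 CPM in TAZ-4SA and 9.48 to 14.6 CPM in EV, and astrocyte markers to 0 to 114 CPM in TAZ-4SA and 8.49 to 25.2 CPM in EV. Only 1 of 5 endothelial and 2 of 3 astrocyte markers passed the filter, and 0 of these were called higher or lower. Without the filter 1 of 5 endothelial markers was lower. SYT1 was highest in TAZ-4SA tumours 5 and 6, at 198 and 142 CPM, the same tumours in which ADAM11, MMP16 and MMP17 were highest within TAZ-4SA. Other lower members differed from this. ADAM23 was highest in tumour 1 (25.3 CPM) and lowest in tumour 6 (7.03 CPM), and MMP15 was highest in tumour 2 (17.9 CPM). Tumours 5 and 6 also had the fewest genes at 0 reads of the TAZ-4SA tumours, 2990 and 4964. The part of neurons and the other cell types, and of detection, in the protease levels was not tested.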

How the data were processed

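Total RNA of 9 intracranial LN229 tumours was made into libraries with SMART-Seq and Nextera XT chemistry, which does not keep strand, per the labels' protocols. HISAT2, edgeR and GRCh38 are named in the submitters' processing notes, while their roles, the counter and any gene filter stay unknown (not given in the sources used here). In the table that the authors deposited, values are log2 CPM with a prior of 0.145 CPM, a unit read from the values, and 100% of those under 5000 reads were whole reads within 0.1 read once the prior was removed. CPM are printed without the prior. The library sizes behind them differ from the recovered read totals to a degree that varies by tumour, and how they were set is not given. The members and gene lists were chosen with earlier results of these data known.

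Tumours were grouped by the labelled genotype. The test was limma 3.58.1 under R 4.3.3, using a mean-variance trend and the robust option of its empirical Bayes step, fitted to the deposited log2 values of 15578 genes averaging at least 1 CPM, prior included, and p-values were Benjamini-Hochberg adjusted over all of them at 0.05. Fold changes on this scale depend on the prior where a group is near 0. The fit was tested on simulated data with equal spread in both groups, which these tumours do not have. WWTR1 had an exact permutation test.

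Described in detail were called members with a mean of at least 5 CPM, at most 24, and MMP2, MMP9, MMP14, ADAM10, ADAM17, TIMP2 and TIMP3. Coordinates come from RefSeq on GRCh38 and lengths from GENCODE 29. Without strand, reads of members and of genes that overlap them cannot be told apart. A read was worth 0.0359 to 0.306 CPM in TAZ-4SA and 0.0468 to 0.0645 CPM in EV libraries. Read counts of the 2 most alike tumours of a group, EV 1 and EV 2, gave a chi-square of 18.6 per degree of freedom. They thus differ by more than the counting error of 1 library read again. This cannot tell separate animals from separate preparations of 1 tumour. Log2 values correlated at 0.963 to 0.986 between EV tumours and at 0.705 to 0.825 between TAZ-4SA tumours. Each labelled tumour was counted as its own sample. Alternatives were other pseudocounts, filters, scalings, weights, limma-voom on recovered reads, the replicate number as a block and leaving out tumours. No molecular identifiers mark the reads, and the bounds given therefore cover counting error only.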

Additional observations from a re-analysis of the deposited data

Results flagged for a closer look

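TIMP3 in TAZ-4SA tumour 2 stood apart from the other TAZ-4SA tumours. Its level there was 64.9 CPM, and on the log2 scale the gap to the nearest tumour was 0.654 of the range of the group, above Dixon's critical value for 6 samples. It was 1 flag among the 17 members screened, and chance flags about 1 in 20 groups. The same tumour had 7365 genes at 0 reads, the most of the 9.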

How the results depend on the processing

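The count of higher members lay within 6 to 12 under all alternatives run (8 as reported), with 6 to 11 when a single tumour was left out. Over all genes tested the higher calls ran from 604 with the replicate number as a block to 2531 with array weights (1405 as reported). They were 773 to 1692 when a single tumour was left out. The count of lower members was 11 with a pseudocount of 2 CPM, 3 with a filter at a mean of 10 CPM, which tests fewer genes, 15 with limma-voom on recovered reads and 19 with array weights, and 1 to 9 when a single tumour was left out. Over all genes tested the lower calls moved too, from 2079 as reported to 2635, 967, 3646 and 5630 in the order of those settings and 677 to 839 without an EV tumour. The causes of the other shifts were not tested. Of the 15 called members, 7 were called in each of the 21 alternatives that tested them: ADAMTS6, ADAM9, ADAMTS5, ADAMTS1, ADAMTS12, ADAM10 and ADAMTS8, the last not tested at 10 CPM. MMP9 changed sign to 0.34 with a pseudocount of 2 CPM, 2.00 with quantile normalization, 0.60 with array weights, 1.20 without TAZ-4SA tumours 2, 3 and 4, and between -0.87 and 1.22 when a single tumour was left out; it was called in none of these. The difference of WWTR1 lay between 1.34 and 1.55 when a single tumour was left out. Without an EV tumour the exact permutation p was 0.07143, the smallest possible when the 1-sided share of splits is doubled. Over the single members, 136 results kept direction and call when a tumour was left out, 32 lost the call and 3 changed sign. Under the other alternatives these numbers were 205, 16 and 5.

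Same-numbered tumours of the groups did not deviate together (correlations across genes of 0.031, 0.0037 and -0.047). Tumours of unlike number gave -0.042 to 0.077. So few pairs cannot show whether the numbers stand for a shared batch, and the reported fit left the numbers out. TAZ-4SA tumours 4, 5 and 6 share their numbers with no EV tumour, so a block on the number leaves them out of the group difference. That difference then comes from tumours 1 to 3 of each group. With the replicate number as a block 6 members were higher, without ADAM17 (limma adjusted p = 0.1929) and TIMP2 (0.06351). In the same fit 8 were lower, without ADAM23 (0.06868) and MMP15 (0.1277) and with ADAM8, ADAMTS18 and ADAMTS19, and MMP9 was at 1.11. Over all 15578 genes tested the fit with this block called 604 higher and 2057 lower, against 1405 and 2079 as reported. Of the 27 called genes of the other lists, 9 lost their call with this block (limma adjusted p 0.05063 to 0.2587): TIMP1, FRMD8, TSPAN33, THSD4, TGFA, NOTCH2, CDH2, CD68 and SYT1. An edgeR quasi-likelihood test on the recovered reads was planned and not run, while limma-voom was run on those reads. Depth limits what 0 reads can show: 3 reads are on average 0.419 CPM per TAZ-4SA library, against 0.169 CPM per EV library. The TAZ-4SA mean is raised by tumours 5 and 6, at 0.840 and 0.917 CPM, where tumours 1 to 4 had 0.108 to 0.303 CPM.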
